A study of Dorcoceras hygrometricum with 51 samples.

Results

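In leaves of the resurrection plant *Boea hygrometrica*, 4570 of the 18559 gene promoters with values in the fresh, non-acclimated plants (F) were heavily methylated in CG and CHG and only lightly in CHH. These are the promoters described here. A promoter was taken as the 2 kb window before a gene, and a member had to hold at least 70% CG methylation (mCG), at least 50% CHG methylation (mCHG) and under 20% CHH methylation (mCHH) in the F library. They made up 24.6% of the F promoters. The members were chosen by these F values alone, so every F level is given as a description, and differences that involve F are set down without being read as a finding about these promoters.

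In plants, cytosine is methylated in 3 sequence contexts, CG, CHG and CHH, where H is any base but G. CG methylation is copied at replication by MET1-type enzymes, CHG methylation is kept by chromomethylases that bind methylated histone H3 lysine 9, and CHH methylation has to be laid down anew, by RNA-directed DRM enzymes or by chromomethylases. Promoters that carry CG and CHG methylation together are typical of transposons and silent genes, whereas methylation in CG alone is common inside active genes.

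The plants were seedlings of 3 months, grown from mixed seed of a wild, outcrossing population. Fresh plants (F) had never been dried. SD plants were slowly dried in soil, and A plants were SD plants watered again, which makes them acclimated. A4 and A18 plants had grown on for 4 and 18 weeks after acclimation, and F4 and F18 plants had grown on for the same times without it. A further D marks rapid drying in air of the plants so named, which gives AD, FD, A4D, F4D, A18D and F18D. Every group is leaf tissue of pooled plants, each pool holding about 45 leaves of at least 15 plants. Gene expression was measured in 3 libraries for each of the 13 groups, 39 in all, and methylation in 1 bisulfite library for each group but FD, 12 in all. A bisulfite library joined 6 pools.

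Each group has a single bisulfite library and the deposited levels come without read counts, so methylation differences between groups have no replicate check and no test. The study gives the depth of whole libraries, but the depth at single promoters is unknown. Treatment, library and plant genotype cannot be told apart in them. The A4 bisulfite library stands apart: in 2730 promoters without methylation in F (under 5% in every context), the median mCHH was 1.72% in A4 and 1.51% in AD, against 0.54% to 0.79% in the other 10 libraries. The median mCG there was 1.25% in A4, 1.33% in AD and 0.55% to 1.01% elsewhere. Among the RNA libraries, F4D replicate 1 listed 10220 genes at 0 FPKM and A4 replicate 2 listed 10145. FPKM values are fragments per kilobase of transcript, scaled to the mapped fragments of the library, so they compare genes per length. The 29 photosystem and antenna genes that mark leaf tissue were all expressed, and their summed level ran from 7481 to 129326 FPKM in the fresh groups and from 1892 to 15545 FPKM in the dried ones. Pollen markers summed to 94.1 to 335 FPKM and root cap markers to 17.2 to 57.6 FPKM in the fresh groups. Seed markers summed to 306 to 2317 FPKM in the fresh groups and to 56.3 to 1690 FPKM in the dried ones. The part of these lists in the results was not tested.

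In F the members had a median mCG of 93.0%, with quartiles of 90.3% and 94.8%. Their median mCHG was 84.6% (quartiles 79.6% and 87.8%) and their median mCHH 11.1% (quartiles 8.5% and 14.5%). All F promoters had medians of 62.8%, 51.1% and 12.6%. At the edges of the rule, F511_40183 and F511_14593 lay just inside at 70.02% and 70.07% mCG, and KZV45216 and KZV49617 just outside at 69.99% and 69.89%. For mCHG, KZV24420 (50.02%) and KZV22584 (50.06%) were just inside, and F511_17533 (49.94%) and KZV31393 (49.73%) just outside. For mCHH, F511_24260 and F511_30435 were just inside at 19.9997% and 19.99%, and F511_29499 and KZV22908 just outside at 20%. The rule cuts a continuous range, and the promoters on its edges do not form a separate class.

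CG and CHG methylation of the members hardly moved in 10 of the 12 libraries. Outside A4 and AD the median mCG lay between 93.0% in F and 94.0% in A18, and the median mCHG between 84.6% in F and 87.2% in A18. AD was lower, at 90.3% mCG and 81.9% mCHG. A4 was lowest, at 83.8% mCG and 76.1% mCHG.

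**Figure D1:**
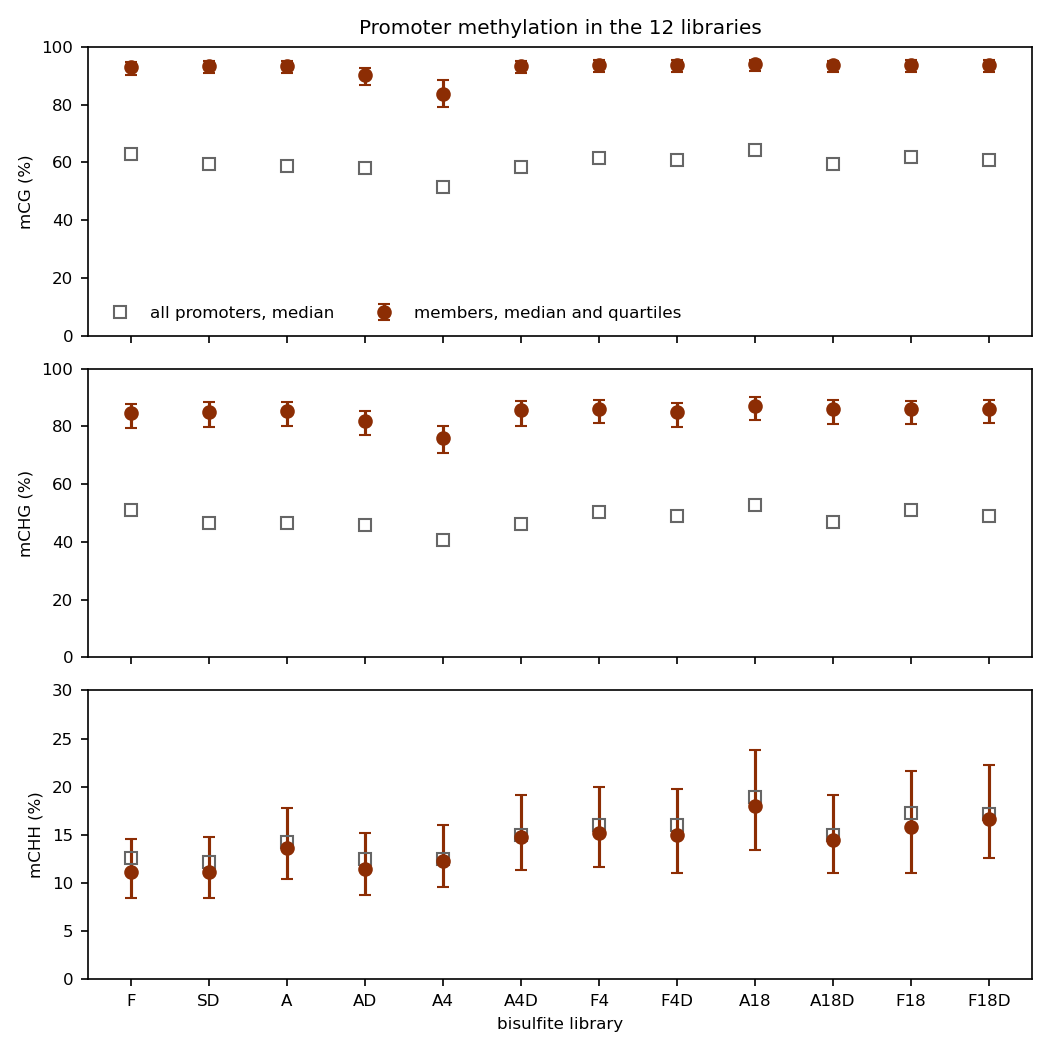
Median promoter methylation (percent) in CG, CHG and CHH in each of the 12 bisulfite libraries, as filled circles with quartile bars for the members and open squares for all promoters. The members sit above 80% mCG in every library and dip in A4, and their mCHH rises from 11.1% in F to 18.0% in A18.

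The median mCHH was 11.1% in F and in SD, 11.4% in AD, 12.3% in A4 and 13.6% in A. It was 14.8% in A4D, 15.2% in F4, 14.9% in F4D and 14.5% in A18D, then 15.8% in F18, 16.7% in F18D and 18.0% in A18. Among the fresh libraries the order was F, F4 and F18 without acclimation, and A18 was above A with it, while A4 stood below A. Since the rule caps mCHH in F at 20%, a rise from F was open to members by construction, and all promoters went from 12.6% in F to 19.0% in A18.

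Comparisons that leave F out gave the following differences in mCHH. From SD to A, which is re-watering after slow drying, the median difference in mCHH was 2.26 points, and 83.9% of members were higher in A, beside 68.5% of all promoters. From A18 to A18D the median mCHH difference was -3.37 points, with 87.7% of members lower (79.5% of all promoters). From A4 to A18 it was 5.43 points, with 92.9% of members higher (73.3%), in a step where mCG was also higher by a median of 9.36 points and mCHG by 10.3 points. Between the 18-week libraries, A18 exceeded F18 by a median of 2.17 points, with 76.1% of members higher (61.3%). In contrast, rapid drying of F4 plants left a median mCHH of 14.9% beside 15.2%, with 55.6% of members lower (52.8%). Rapid drying of F18 plants gave a median difference of 1.05 points upwards.

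Over the 12 libraries, 4463 members had values throughout, and the median span from lowest to highest library was 12.0 points for mCG (quartiles 8.16 and 16.0), 12.8 points for mCHG and 9.30 points for mCHH. Without the A4 library the mCG span fell to 6.41 points and the mCHG span to 7.83 points, while the mCHH span was 9.11 points. A4 held the lowest mCG of 3540 of the 4463 members and the lowest mCHG of 3341. The highest mCHH was in A18 for 2052 members, and the lowest was in F for 1362, in SD for 1270 and in AD for 929.

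Read back through the other 11 libraries, the rule was met again by most members. It was met in SD by 4186 of 4547 members with a value (92.1%), in AD by 4116 (90.5%), in A4 by 3846 of 4523 (85%) and in A by 3812 (83.9%). It was met in A18 by 2667 of 4548 (58.6%), the lowest share. Members left mostly through CHH: 1841 reached 20% mCHH in A18 and 263 in SD. By contrast only 52 to 121 members had dropped under 70% mCG in 10 of the 11 libraries, while in A4 the number was 297. In all 12 libraries the rule was met by 2221 of the 4463 members (49.8%), and 93 (2.08%) met it in F alone.

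**Figure D2:**
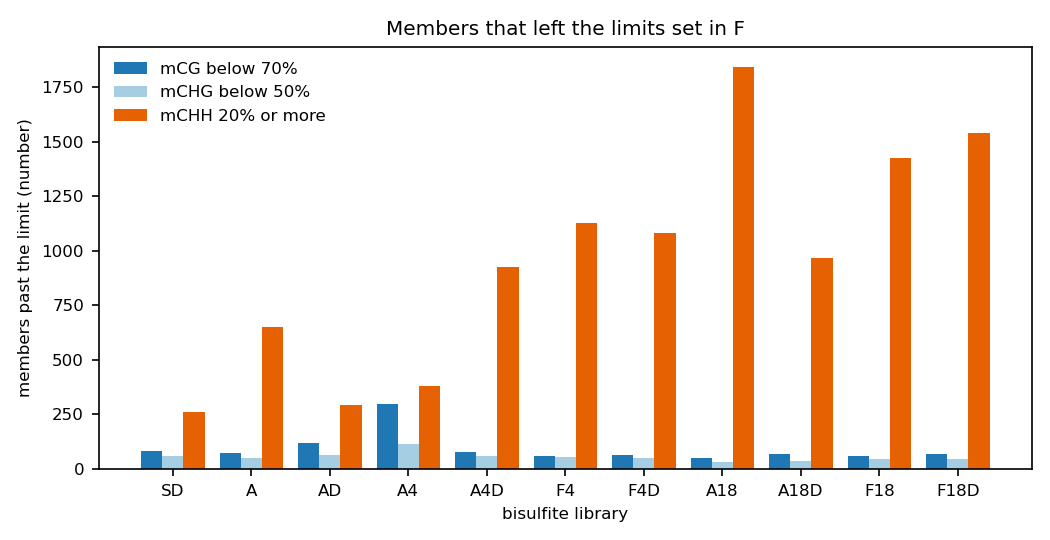
Number of members that no longer met each limit of the rule in the other 11 bisulfite libraries (mCG under 70%, mCHG under 50%, mCHH of 20% or more). The CHH bars run from 263 in SD to 1841 in A18, and the CG bar is highest in A4, at 297.

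The A4 library was lower than A in CG and CHG across nearly all members. The median difference from A was -8.70 points for mCG (quartiles -12.9 and -4.46), with 93.6% of members lower, beside 76.2% of all promoters. It was -8.43 points for mCHG, with 91.8% of members lower (69.3% of all promoters), and -1.16 points for mCHH, with 69.4% lower (57.7%). As a ratio of A4 to A the members had medians of 0.905 in CG, 0.899 in CHG and 0.913 in CHH, so in this comparison the contexts fell in similar proportion. Among 3177 promoters heavy in CG and CHG that had 20% or more mCHH in F, the ratios were 0.908, 0.898 and 0.877. Over all promoters the median mCG difference was -5.55 points. In the other comparisons with A4, the members' mCHH differed in larger proportion than their mCG and mCHG. The median ratios in CG, CHG and CHH were 0.903, 0.892 and 0.817 for A4 to F4. They were 1.105, 1.112 and 1.19 for A4D to A4, and 1.111, 1.136 and 1.441 for A18 to A4.

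The A4D library lay back at the level of A. Its median differences from A4 were 8.78 points in mCG, with 93.3% of members higher (76% of all promoters), 8.52 points in mCHG and 2.35 points in mCHH. A4 was also below F4, by 8.99 points in mCG and 9.22 points in mCHG. The AD library was lower than A by a median of 2.71 points in mCG, 3.05 points in mCHG and 2.03 points in mCHH, with 79.0%, 79.5% and 81.7% of members lower (61%, 58.7% and 59.4% of all promoters). A4 and AD are the libraries with the raised levels in promoters without methylation given above, and the part of that background in these differences was not tested.

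**Figure D3:**
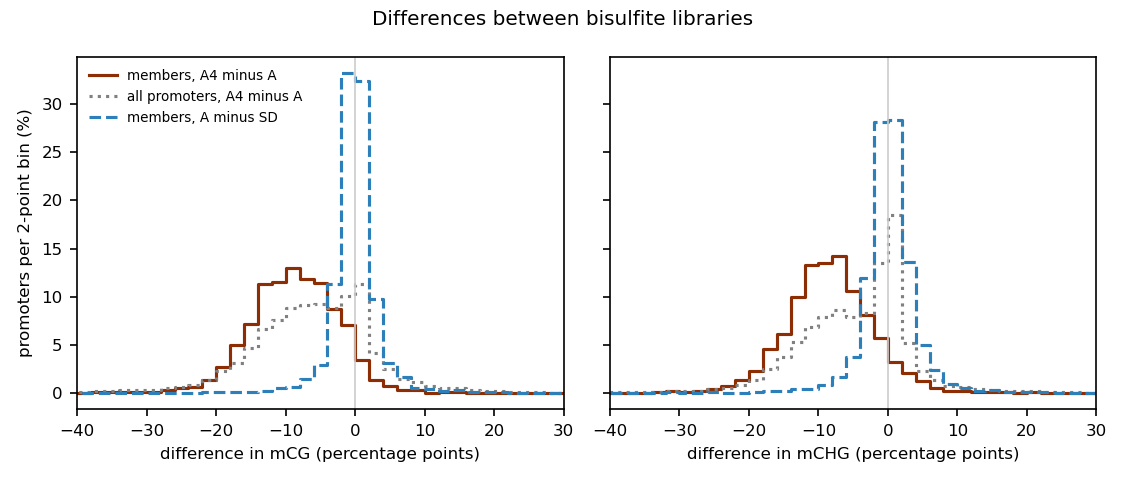
Distribution of the difference between bisulfite libraries in mCG (left) and mCHG (right), in percentage points, as the percent of promoters per 2-point bin. For A4 minus A the members peak well below 0 (median -8.70 points in mCG), whereas for A minus SD they peak at 0.

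Large changes at single promoters were few. A difference of at least 20 points was counted, and between A and A4 it was reached as a fall in mCG by 169 of 4511 members (3.75%), beside 5.66% of all promoters. For mCHG the fall was reached by 153 members (3.39%, beside 3.23% of all promoters). The return from A4 to A4D gave 185 rises in mCG (4.1%, beside 5.87%) and 172 in mCHG (3.81%, beside 3.39%). From A4 to A18 there were 234 rises in mCG (5.19%, beside 9.08%), 274 in mCHG (6.07%, beside 7.01%) and 35 in mCHH (0.776%, beside 3.47%). Below F4, A4 had 198 falls in mCG (4.39%, beside 7.63%) and 200 in mCHG (4.43%, beside 5.48%). The comparisons without A4 had few such members in mCG, in either direction. There were 29 in A against SD (0.64%, beside 4.02%), 35 in AD against A (0.773%, beside 4.08%) and 27 in A18D against A18 (0.595%, beside 5.32%). F4D against F4 had 21 (0.462%, beside 4.09%), F18 against F4 28 (0.619%, beside 5.64%), F18D against F18 25 (0.552%, beside 5.25%) and A18 against F18 27 (0.597%, beside 5.9%). Against F, SD had 38 (0.836%, beside 5.93%) and F4 24 (0.527%, beside 5.27%). In mCG the members' share was below that of all promoters in each of these comparisons, without a test of the difference. Levels near 100% can move far in only 1 direction.

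The promoters with the deepest falls from A to A4 were mostly low in that library only, with exceptions. The promoter of KZV44928, a hypothetical protein, had 81.0% mCG and 81.0% mCHG in A and was listed at 0 in all 3 contexts in A4, then at 85.3% mCG in A4D. Its mCG was 67.6% in F18 and 84.6% to 91.2% in the other libraries outside A4 and A. The promoter of KZV17751, an HTH-type transcriptional regulator, went from 80.9% mCG in A to 12.8% in A4 and stood at 75.8% in A4D, but was also low in A18D, at 29.9%. Its mCHG moved alike, from 66.8% in A to 15.9% in A4 and 32.4% in A18D.

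Some other falls were uneven between contexts. F511_36542 went from 94.5% to 34.2% mCG while its mCHG went from 80.3% to 69.7%. KZV57060, a hypothetical protein, went from 81.7% to 24.7% mCHG while its mCG was 94.1% and 73.2%, and it was low in mCHG in F4 as well, at 30.3%, with mCHH of 32.3% in A4 and 29.4% in F4 beside 6.63% to 11.2% elsewhere. KZV40587 went from 98.1% to 40.8% mCG and from 88.1% to 13.3% mCHG, and F511_04273 from 94.8% to 38.6% and from 93.7% to 45.6%. How many reads lie behind these values is unknown, so a promoter with few covered cytosines cannot be told from one that changed.

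The largest rises of mCHH from A4 to A18 also belonged to the A18 library. KZV53809, a hypothetical protein, went from 29.6% to 67.0%, and no other library exceeded 39.3%. KZV43522, a DnaJ/Hsp40 cysteine-rich domain protein, went from 12.9% to 50.1% against 11.0% to 20.2% in the other libraries, and its mCG was highest in A18 too, at 94.9%. For KZV51569 the rise was from 17.0% to 46.5%, with 37.8% in F4. KZV38782, a polynucleotide adenylyltransferase family member, rose from 14.0% to 49.4%, but its mCHH was between 28.7% and 48.2% in 8 other libraries, so that A4, F and SD were the low ones.

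Many members lay next to another member in the genome. Locus tags follow the order of genes: 96% of 13062 consecutive tag pairs shared a scaffold, and in all of these the later tag started further along. The next tag had a value for 1244 members, and for 683 (54.9%) it was a member too. The share was 14.3% over all promoters and 9.91% over promoters that were not members. Runs of at least 2 neighbouring members numbered 567 and held 1250 members, and the longest run, of 6, started at F511_16086. A window of 2 kb can overlap the neighbouring gene or its promoter, so neighbours may share cytosines.

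Few member genes had a row in the expression table, which lists 26693 genes. Of the 4570 members, 864 (18.9%) had one, beside 12745 of 18559 promoters (68.7%). In promoters without methylation the share was 94.6%, in those with methylation in CG alone 89.6%, and in those heavy in CG and CHG with 20% or more mCHH 67.0%. The table holds no gene at 0 FPKM in every library, but why a gene has no row was not examined. Of the 26693 listed genes 19125 carry a locus tag, so a gene listed without a tag could not be joined. Across all F promoters the share fell from 94.2% at 0 to 10% mCG to 23.2% at 90 to 100% mCG.

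Within promoters heavy in CG and CHG, the share rose with CHH. It was 21% at 0 to 5% mCHH, 13.6% at 5 to 10%, 18% at 10 to 15% and 29.3% at 15 to 20%. Beyond the limit of the rule it went on through 45.9% at 20 to 25% mCHH and 61.1% at 25 to 30% to 79.5% above 35%. Among the members, the share fell from 63.6% at 50 to 60% mCHG to 12.4% at 85 to 90%, and from 50% at 70 to 80% mCG to 13.7% at 90 to 95%, and was 20.6% at 95 to 100% mCG.

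**Figure D4:**
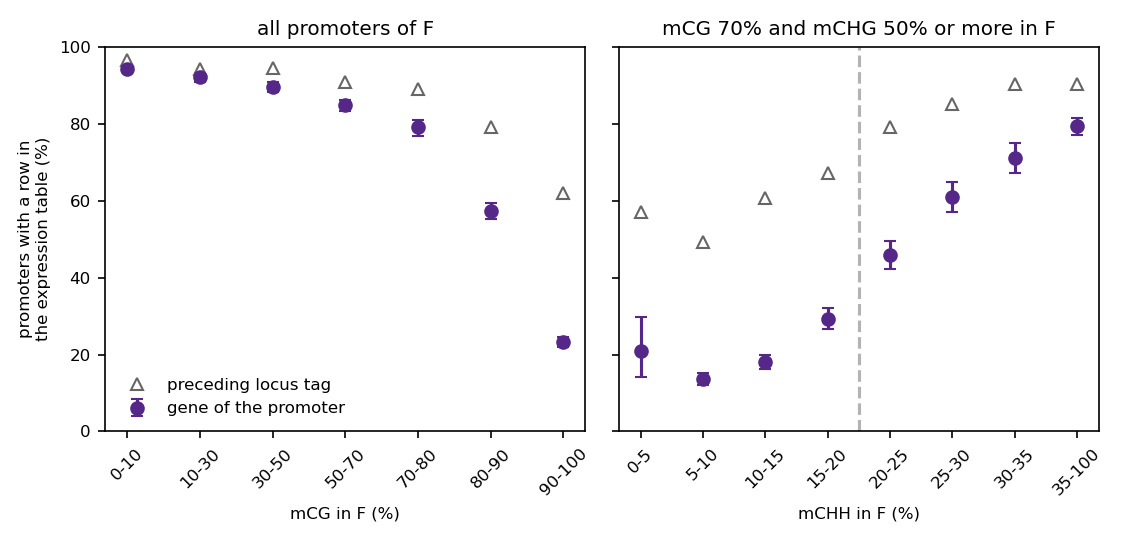
Percent of promoters whose gene has a row in the expression table, by mCG in F over all promoters (left) and by mCHH in F over promoters with at least 70% mCG and 50% mCHG (right). Filled circles with 95% Wilson intervals use the promoter's own locus tag and open triangles the preceding one; members lie left of the dashed line, where the share by own tag is 13.6% to 29.3%.

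The link between promoter and gene needs care. The FPKM values printed beside the methylation levels in the promoter tables correlate across 11866 genes with the expression of the preceding locus tag (Spearman's rho 0.931) and hardly with that of the tag in the same line (0.0650). Here the methylation values were linked by their own tag and expression was read from the expression table. By preceding tag, 57.8% of members had a row, and the share fell less steeply with mCG, from 96.6% to 62%. The steeper of the relations was that of the own tag.

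Most of the 864 listed members were genes without a named product. A product was named for 315 of them (36.5%, beside 49% of all genes with a tag). Their genomic span had a median of 1495.5 bp, against 2203 bp for all listed promoters. Of 20 listed promoters of transposon-related proteins, 11 were members (55%), beside 6.78% of all listed promoters. LEA (late embryogenesis abundant) and early light-induced proteins (ELIPs), which protect dried cells and chloroplasts, had 5 of 21 (23.8%), and receptor-like kinases 26 of 160 (16.2%). Pentatricopeptide repeat proteins, which process organelle RNA, had 10 of 277 (3.61%), and F-box proteins 1 of 87 (1.15%).

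None of the 16 photosystem and antenna promoters, of the 18 proteasome promoters or of the 19 NBS-LRR disease resistance promoters was a member. The same holds for the lists of methylation machinery (CG and CHG methyltransferases, DRM, demethylases, RNA-directed factors, histone H3 lysine 9 methyltransferases and histone deacetylases), with 2, 1, 2, 8, 8 and 6 promoters. These lists are short beside a share of 6.78% of all listed promoters, and nothing is read from the 0 counts. By product name, 18 of 24 promoters of genes called peroxidase 64 were members, and 17 of 22 called Cysteine-rich RLK 8. Of the genes named retrovirus-related Pol polyprotein from transposon TNT 1-94 it was 6 of 8, of those named RICESLEEPER 2-like, which is a domesticated transposase, 6 of 11, and of those named dystroglycan-like 5 of 5. Genes that share a product name can be near-identical copies, between which reads may be split, and these names were picked after their counts were seen.

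Member genes with a row were weakly expressed. Their median level in F was 0.75 FPKM (quartiles 0 and 8.46), against 11.2 FPKM for genes with promoters without methylation and 9.53 FPKM for genes heavy in CG and CHG with more CHH. In F, 47.3% of the 864 reached 1 FPKM (95% Wilson interval 44% to 50.7%), beside 78.2% of all listed promoters. The share was 49% in SD and 44.9% in AD, and it was lowest in F4D (36.2%) and A4D (36.7%). In F4D the single libraries had 31.6%, 40% and 36.7%. A level of 1 FPKM was reached in all 39 libraries by 195 members and in none by 263. At least 100 FPKM was reached by 20 members in F, 28 in SD and 25 in A4D.

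Of the 864, 533 (61.7%) reached 1 FPKM in at least 3 libraries and entered the limma fit, beside 70.2% of all genes. At least 1 of 10 comparisons called 400 members, which is 46.3% of the 864 beside 55.5% of all genes in the table. Of all fitted genes it was 79.1%, for which the like base is the 533 fitted members, 400 of them called. A call needs a change of at least 1 on the log2 scale of FPKM + 1 and a Benjamini-Hochberg adjusted p of at most 0.05. Where separate cultures are not stated to lie behind the replicate pools, the p-values measure the spread between these pools.

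Slow soil drying raised 93 members and lowered 75 when promoters and genes were linked by their own tag. The rises from F to SD were 10.8% of the 864, beside 9.05% of all genes in the table and 12.9% of fitted genes. The percent of fitted genes, here and below, has another base than that of the 864. Its like share of members is 93 of the 533 fitted ones for these rises. The falls were 8.68%, beside 15.5% of all genes and 22.1% of fitted genes. Linked by the preceding tag, the balance turned, with 8.98% of members up and 13.3% down. The median log2 fold change was 0.16 over the fitted members and -0.14 over all fitted genes. On re-watering, from SD to A, 73 members rose (8.45% of the 864, beside 14.3% of all genes and 20.4% of fitted genes). The number that fell was 102 (11.8%, beside 10.2% of all genes and 14.5% of fitted genes), and without replicate 1 of both groups the balance turned, with 7.64% up and 6.94% down.

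Rapid air drying lowered more members than it raised in each of the 5 rapid dryings compared, a balance that turned in AD, A18D and F18D under another scaling given below. FD against F was not among the 10 comparisons. For each count, the first percent is of the 864, the next of all genes in the table and the last of fitted genes. Only the first 2 have like bases, since 533 of the 864 were fitted. From A to AD 64 rose (7.41%, 9.17% and 13.1%) and 100 fell (11.6%, 18.4% and 26.2%). From A4 to A4D 41 rose (4.75%, 7.28% and 10.4%) and 141 fell (16.3%, 24.9% and 35.5%). From A18 to A18D 27 rose (3.12%, 4.51% and 6.43%) and 78 fell (9.03%, 14.5% and 20.6%). In each of these rapid dryings of acclimated plants the members' share was below that of all genes in both directions, without a test of the difference.

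Without prior acclimation, F4D against F4 had 38 rises (4.4%, 7.27% and 10.4%) and 151 falls (17.5%, 25.2% and 35.9%). F18D against F18 had 28 rises (3.24%, 4.3% and 6.13%) and 147 falls (17%, 21.2% and 30.2%). Without F4D replicate 1, a choice made after seeing the data, 4.17% of the 864 rose and 14.4% fell in F4D. Without replicate 3 of both groups, 10.5% of the 864 fell in A4D in place of 16.3%, and without replicate 1, 10.8% fell in F18D in place of 17%. In all of AD, A4D and A18D against their fresh groups, 20 members rose (2.31% of the 864, beside 3.23% of all genes in the table) and 53 fell (6.13%, beside 10.7%).

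The direction of these totals depends on scaling. Under median-ratio scaling of FPKM, which moves the median of all genes by 0.33 (AD against A), 0.65 (A4D against A4), 0.50 (A18D against A18), 0.74 (F4D against F4) and 0.72 (F18D against F18) on the log2 scale, the share of rises among member calls went from 39% to 55.7% in AD, from 22.5% to 48.8% in A4D and from 25.7% to 63.2% in A18D. It went from 20.1% to 47.4% in F4D and from 16% to 55.1% in F18D. For SD against F the shift was 0.09 and the share of rises 55.4% and 59.3%. Of the calls of named member genes, 114 were kept under this scaling and 12 were not. Among the lost calls given below are the interaction of KZV31986 (adjusted p = 0.0613 in limma on scaled values) and the fall of KZV26043 in A18D (adjusted p = 0.0606).

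Growing on gave fewer calls, among members as among all genes. From A to A4, the step with the general fall of methylation, 5 members rose (0.579% of the 864, 0.611% of all genes and 0.87% of fitted genes) and 2 fell (0.231%, 0.85% and 1.21%). The share of rises there went from 71.4% to 42.9% under the scaling. From A4 to A18, 22 rose (2.55%, 4.24% and 6.05%) and 29 fell (3.36%, 4.52% and 6.44%), with the share of rises going from 43.1% to 29.5%. From F4 to F18, 57 rose (6.6%, 8.68% and 12.4%) and 19 fell (2.2%, 3.19% and 4.54%), with the share going from 75% to 42.9%. Without A4 replicate 2, the members that rose from A to A4 made up 1.74% of the 864 (0.579% with it), those that fell 0.116% (0.231%), and those that rose from A4 to A18 1.39% (2.55%). Fitted on the 6 libraries of the comparison alone, limma called 0 members in A4 against A and 0 in A18 against A4. At an unadjusted p under 0.05, 77 and 107 members passed in the fit of all libraries. Without replicate 2 of both groups, 1.5% of the 864 rose from F4 to F18 in place of 6.6%.

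The members with the largest rises on drying included desiccation proteins. All 5 LEA and ELIP members rose from F to SD (12.9% of fitted genes did), 4 rose from A to AD (13.1%), and 3 from A4 to A4D (10.4%). From A18 to A18D 0 of the 5 passed in limma (0 also at an unadjusted p under 0.05), with log2 fold changes from -3.27 to 2.28. Rises were also called without acclimation. KZV27934 rose in F4D against F4 (4.11 ± 1.25, limma adjusted p = 0.00638) and in F18D against F18 (3.02 ± 1.25, adjusted p = 0.0486). KZV34379 rose in F18D against F18 (3.16 ± 0.82, limma adjusted p = 0.00232) but was not called in F4D. The other genes of the list were called in neither F4D nor F18D. The list is made up of KZV31986 and 4 ELIPs. It was drawn up with earlier results of these data known. The most abundant member, KZV31986, is a late embryogenesis abundant protein 76-like gene, of the family that shields proteins and membranes from water loss. It had 1127, 2457 and 1311 FPKM in F and 5171, 7836 and 6393 FPKM in SD. In A it had 1550, 1522 and 1866 FPKM and in AD 4734, 5323 and 5066 FPKM. The dried libraries were all above the fresh ones (SD against F log2 fold change 2.05 ± 0.37 (SE), adjusted p = 4e-05; AD against A 1.62 ± 0.37, adjusted p = 0.000569).

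Without prior acclimation and before growing on, the same gene behaved differently under rapid drying. FD held 1300, 969 and 1776 FPKM, which overlaps F, and the difference between the responses of AD and FD was 1.85 ± 0.52 on the log2 scale (limma interaction, adjusted p = 0.0225, but 0.0613 under median-ratio scaling). At 4 and 18 weeks the like differences were 0.71 ± 0.52 and -0.87 ± 0.52. Neither passed the test (limma interaction, adjusted p = 0.898 and 0.483). The methylation of its promoter in FD is unknown, since FD has no bisulfite library. In the other groups the promoter had between 90.01% and 96.5% mCG, apart from 73.5% in A4. In A4 the gene was at 2484, 4886 and 3229 FPKM.

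KZV29475, an embryonic protein DC-8-like gene, is not on that list by its product name, but carrot DC8 is a LEA protein. It had 60.6, 128 and 93.3 FPKM in F and 663, 892 and 778 FPKM in SD. From 89.8, 155 and 121 FPKM in A it went to 1600, 2056 and 2142 FPKM in AD, and FD was as high, at 1244, 1558 and 1767 FPKM. The groups did not overlap in either comparison, and the fold changes were 3.09 ± 0.50 (adjusted p = 9.46e-06) and 4.00 ± 0.50 (adjusted p = 1.08e-07). Its promoter was uneven between libraries, with mCG from 50% in A4D to 96.8% in A.

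Of the 4 early light-induced proteins among the members, which bind pigments in stressed chloroplasts, KZV27934 gave the largest rise. It had 5.45, 5.99 and 8.48 FPKM in F and 5835, 5516 and 6346 FPKM in SD (9.61 ± 1.25, adjusted p = 2.69e-07). In A it was back at 16.7, 19.6 and 51.9 FPKM, and in AD it was at 848, 433 and 1473 FPKM, against 36.9, 33.4 and 15.5 FPKM in FD. All 3 libraries of SD lay above F and those of AD above A. The difference between the AD and FD responses, 3.04 ± 1.77, did not pass the test (adjusted p = 0.316). The promoter had 96.6% mCG in F and 96.3% in SD.

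KZV34379 had 17.9, 20.4 and 22.3 FPKM in F, 493, 2163 and 1741 FPKM in SD and 0, 11.8 and 0 FPKM in FD. Its libraries in A (32.5, 19.2 and 36.3 FPKM) lay below those in AD (245, 146 and 237 FPKM). The responses of AD and FD differed by 5.98 ± 1.15 (adjusted p = 0.000712), while those of A4D and F4D did not pass the test (2.02 ± 1.15, adjusted p = 0.876). The other ELIPs were less even: KZV50856 had 1.51, 922 and 46.4 FPKM in SD beside 2.7, 0 and 1.68 FPKM in F, so its groups overlapped although it was called. KZV45472 was listed at 0 in all 3 F libraries and in 1 of 3 SD libraries, with 79.8 and 57.1 FPKM in the others. ELIP genes are alike in sequence, and reads may be split between them.

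KZV23172, an alcohol dehydrogenase family gene, went from 26.7, 55.5 and 45.5 FPKM in F to 590, 689 and 704 FPKM in SD (3.98 ± 0.58, adjusted p = 1.53e-06). KZV58762, a sucrose transporter-like gene, was called as raised in SD, AD, A4D, A18D, F4D and F18D, with 10.6, 10.6 and 14.4 FPKM in F and 46.5, 36.4 and 42.2 FPKM in SD. Its groups did not overlap in SD against F. The promoter of KZV58762 lay near the edge of the rule, with 70.8% mCG in F, and met all 3 limits only in F and A18D. KZV38167, a cysteine protein inhibitor B gene, rose with all 5 rapid dryings compared, FD not among them (AD against A 5.35 ± 0.50, adjusted p = 4.92e-10). KZV54601, a zinc finger family gene, rose in each drying comparison that was fitted.

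KZV24071, an adenosylhomocysteinase 1 gene, whose enzyme clears the by-product of methyl transfer, was abundant throughout. It had 437, 346 and 969 FPKM in F and 1196, 1528 and 1370 FPKM in SD (1.36 ± 0.33, adjusted p = 0.00108). It was also 1 of the 5 members that rose from A (467, 236 and 371 FPKM) to A4 (1274, 562 and 929 FPKM), by 1.34 ± 0.33 (adjusted p = 0.0248). Neither pair of groups overlapped. Its promoter had 66.9% mCG in A and 53.6% in A4.

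KZV54421, a putative chloroplast ribose-5-phosphate isomerase 3 of the Calvin cycle and pentose phosphate pathway, had 330, 343 and 270 FPKM in F and 89.2, 82.2 and 75.1 FPKM in SD. It had 417, 405 and 369 FPKM in A and 41.7, 24.3 and 22.8 FPKM in AD. No fresh library overlapped a dried one, and it fell by 1.92 ± 0.30 in SD and by 3.75 ± 0.30 in AD (adjusted p = 4.35e-06 and 2.39e-11). It lies on scaffold KQ989523.1 from 182356 to 183186, near KZV54418, from 168640 to 171896.

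KZV54418 encodes a chloroplastic 43 kDa signal recognition particle protein, which carries antenna proteins to the thylakoid. From 115.5, 99.2 and 117 FPKM in A it went to 2.3, 2.1 and 4.46 FPKM in AD (-4.86 ± 0.32, adjusted p = 9.3e-13). FD was higher than AD, at 9.79, 10.2 and 9.57 FPKM, and the AD and FD responses differed by -2.28 ± 0.46 (adjusted p = 0.00109). Slow drying was not a call: F had 71.4, 60.9 and 60.5 FPKM and SD 60.6, 49.7 and 46.5 FPKM, which overlap. The promoter kept 89.5% to 93.9% mCG in all 12 libraries.

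KZV20110, a high mobility group B protein 9 gene, whose family binds DNA in chromatin, went from 31.3, 27.7 and 17 FPKM in F to 0.2, 0.36 and 0.22 FPKM in SD. It fell by 4.34 ± 0.47 (adjusted p = 8.87e-09), with no overlap, and it was called as lowered by each of the 5 rapid dryings compared. KZV26043, a cylicin-1-like gene, fell by 4.40 ± 0.43 in SD (adjusted p = 1.64e-09) and was likewise lowered by all 5, though not in A18D under median-ratio scaling.

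The HTH-type regulator KZV17751, whose promoter was listed at 12.8% mCG in the 1 bisulfite library of A4, had 19.2, 37.3 and 12.5 FPKM in A and 114, 140 and 30 FPKM in A4. The groups overlap, and the difference of 1.86 ± 0.62 did not pass the test (adjusted p = 0.109). In A18D, where its promoter was low again, it had 2.9, 2.49 and 0.99 FPKM, below the 10.1, 11.2 and 39.6 FPKM of A18. The gene was also called as lowered in SD, AD, A4D and F4D, where the promoter had 59.2%, 66.9%, 75.8% and 83.0% mCG. It was not called in F18D, where the promoter had 61.5% mCG. F4, with 80.6% mCG, had 132, 62 and 13.4 FPKM, which overlaps A4 with 1 library below it.

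One member, KZV25428, a hypothetical protein on scaffold KV011878.1 from 184628 to 186723, is shown with the primer pair the study designed for its transcript, since it is the only member found with one. The sequences are in lower case with no base singled out.
KZV25428 forward: attccgcatcacgccaccatc
KZV25428 reverse: ccgaaggaccgaagattccaagg
It had 3952, 1253 and 1349 FPKM in F, 86.7, 46 and 92.2 FPKM in SD, and 5175, 14648 and 8088 FPKM in A. SD was far below both fresh groups, with log2 fold changes of -4.70 ± 0.77 against F (adjusted p = 9.54e-06) and 6.87 ± 0.77 from SD to A (adjusted p = 1.84e-08). Its promoter had 95.4% mCG in F, 96.1% in SD and 95.9% in A.

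**Figure D5:**
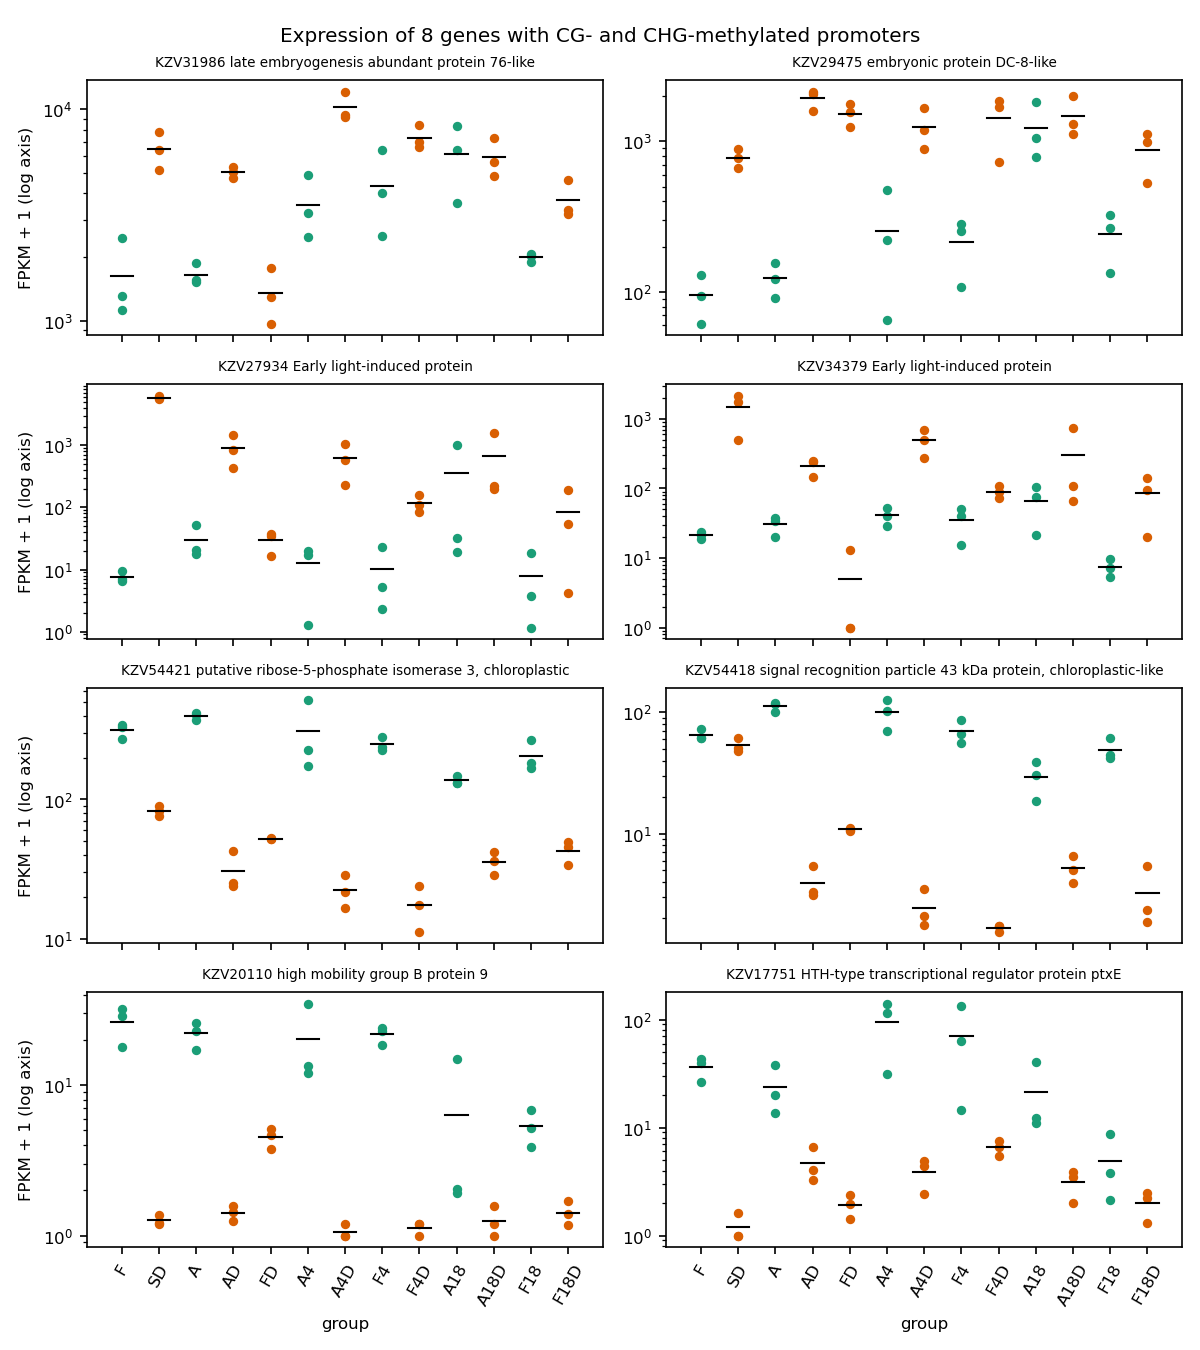
FPKM + 1 on a log axis in each of the 13 groups for 8 member genes; points are single libraries (green fresh, orange dried) and bars are group means. KZV27934 goes from at most 8.48 FPKM in F to at least 5516 FPKM in SD, and KZV54421 is lower in every dried group than in its fresh group.

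The transposon-related members were close to silent. Of the 11, 2 had a mean of at least 1 FPKM over the 39 libraries, the median of their means was 0.0403 FPKM, and 4 entered the fit, all of them called in at least 1 comparison, beside 79.1% of fitted genes. KZV40714, a TNT 1-94 Pol polyprotein gene, fell by 1.62 ± 0.48 from SD to A (adjusted p = 0.00726) and rose by 1.92 ± 0.48 in AD (adjusted p = 0.00144). KZV36891, of the same name, rose by 1.25 ± 0.31 in AD (adjusted p = 0.00137). The 6 MYB, NAC and WRKY members, which are transcription factors, had a median of 0.277 FPKM. Of these, 3 entered the fit and 2 were called in any comparison.

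Expression calls and methylation differences were set side by side for the fitted members, as a description from 1 bisulfite library a group. From F to SD the median mCG difference was -0.34 points in the members that rose, -0.21 in those that fell and 0.01 in fitted members without a call. A difference of at least 20 points of mCG was seen in 1 of 93 members that rose, 5 of 75 that fell and 12 of 362 without a call. All of these were lower in SD, in a comparison that uses the F values of the rule. From A4 to A4D the medians were 6.13, 8.24 and 7.22 points, and over 20 points of mCG were gained by 2 of 40 members that rose, 11 of 140 that fell and 16 of 346 without a call. From A4 to A18 the gain was seen in 2 of 22 members that rose, 4 of 29 that fell and 39 of 476 without a call. The differences between these shares were not tested.

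Genes of the methylation machinery, none of them a member, are given with the share of all fitted genes. In at least 1 comparison, 3 of 4 CG and CHG methyltransferase genes were called, the only DRM gene, both demethylase genes and 13 of 14 genes of the DDM1, FDM and RNA-directed group. Of the fitted histone H3 lysine 9 methyltransferase genes it was 10 of 12 and of the fitted histone deacetylase genes 10 of 11, where 79.1% of all fitted genes were called. KZV43016, a CMT3 chromomethylase, which maintains CHG methylation, fell by 2.60 ± 0.76 on the log2 scale from A4 to A4D (adjusted p = 0.00475) and by 2.45 ± 0.76 from A4 to A18 (adjusted p = 0.029). The members' mCHG was higher in A4D and A18 than in A4, each from 1 bisulfite library, and a link to this gene was not tested here. For the whole genome, the paper reports that expression of KZV43016 was negatively correlated with mC, mCG and mCHG over its samples. Of the calls of named machinery genes, 30 were kept under median-ratio scaling and 16 were not. Those of KZV43016 given here were kept.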

How the data were processed

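The members, gene lists and tests were chosen with earlier results of these data known. RNA was sequenced as poly(A) libraries in 39 samples and bisulfite-converted DNA in 12. Per the study's methods, the authors aligned RNA reads with HISAT, assembled added transcripts with StringTie 1.0.4, and deposited FPKM values from Bowtie2 2.2.5 and RSEM. They aligned bisulfite reads with BSMAP, allowing up to 2 mismatches, and deposited each promoter's methylation level as a fraction, methylated over all reads, for a 2 kb window. The fractions were printed as percents. For the genome build, the sources used here give no name. Coverage per site was not used, so the depth at single promoters is unknown. The study gives depth for whole libraries only.

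Expression was tested with limma 3.58.1 (R 4.3.3) on log2(FPKM + 1), a scale that understates the change of low genes, over the 39 libraries without a block, on the 18736 of 26693 genes that reached 1 FPKM in 3 or more libraries. Calls needed a log2 fold change of at least 1 and a Benjamini-Hochberg adjusted p of at most 0.05. The fit was tested on simulated data. Methylation was compared as differences in percentage points, with no test. Shares carry 95% Wilson intervals, which cover counting error only. Promoters and genes were joined by locus tag. Named genes were members with a named product, unless stated: the 3 largest calls in each direction with no overlap between groups in SD/F, AD/A, A4D/A4 and A18D/A18, the 10 with the highest mean FPKM, the 6 largest falls of CG or CHG from A to A4, the 6 largest rises of CHH from A4 to A18, the promoters at the rule's edges, and machinery genes called in any comparison. Members of the listed gene families and the gene with a primer pair are named in addition. Other pseudocounts, filters, scalings, thresholds, links and left-out replicates were tried.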

Additional observations from a re-analysis of the deposited data

Results flagged for a closer look

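For 3 member genes, the response to rapid drying differed between acclimated (A) and non-acclimated (F) plants that had not been grown on. This was a test of the difference itself (limma interaction term, Benjamini-Hochberg adjusted over all fitted genes). A plants had also passed the time of slow drying and re-watering, so age is not separated from acclimation here. For the early light-induced protein KZV34379 the log2 fold change was 5.98 ± 1.15 higher in AD against A than in FD against F (adjusted p = 0.000712). For the chloroplast signal recognition particle gene KZV54418 the difference was -2.28 ± 0.46 (adjusted p = 0.00109), and for the late embryogenesis abundant gene KZV31986 it was 1.85 ± 0.52 (adjusted p = 0.0225, and 0.0613 under median-ratio scaling). Over all members, 37 passed this test as higher and 18 as lower in acclimated plants, where 4.4% and 4.41% of fitted genes did. For the plants grown on, 0 members passed it at 4 weeks (limma; 11 higher and 13 lower at an unadjusted p under 0.05), where 0.00534% of fitted genes passed in each direction. At 18 weeks 3 passed as higher and 1 as lower, where 0.512% and 0.288% of fitted genes did. No bisulfite library of FD was used, so the methylation of these promoters in FD is not analysed here. Results of these interaction tests with single libraries left out are not given here.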

How the results depend on the processing

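No fold change of a named gene changed sign in these alternatives, but the balance of rises and falls among members turned under median-ratio scaling in AD/A, A18D/A18, F18D/F18, A4/A and F18/F4. By preceding tag it turned in SD/F (8.98 up), A/SD (12 up and 10 down), A4/A (0.758 up) and A18/A4 (4.02 down). It also turned in A/SD without replicate 1 (7.64 up and 6.94 down) and in A18/A4 with a pseudocount of 0.1 (2.89 and 2.43) and without replicate 3 (3.82 and 2.43). Percents are of members with a value or row. For members past 20 points, a limit of 10 points gave 41.5 (A4/A mCG), 39.7 (A4/A mCHG), 41.8 and 40.1 (A4D/A4), 46.2, 52.3 and 14.9 (A18/A4 mCG, mCHG, mCHH), 44.3 and 44.3 (A4/F4), and for mCG 2.93 (A/SD), 6.56 (AD/A), 2.69 (A18D/A18), 2.11 (F4D/F4), 2.72 (F18/F4), 3.25 (F18D/F18), 2.83 (A18/F18), 3.03 (SD/F) and 2.88 (F4/F). A limit of 30 points gave, in that order, 0.687, 0.621, 0.731, 0.62, 0.798, 0.798, 0.111, 0.731, 0.731, 0.243, 0.221, 0.198, 0.22, 0.221, 0.243, 0.221, 0.176 and 0.11. Stricter members (mCG 80%, mCHG 60%, mCHH under 15% in F) gave 0.33 for A18/A4 mCHH and, for mCG, 0.209 (A/SD), 0.449 (AD/A), 0.239 (A18D/A18), 0.298 (F4D/F4), 0.299 (F18D/F18), 0.329 (A18/F18), 0.328 (SD/F) and 0.208 (F4/F), and members chosen by F4 gave 0.203 for A18/A4 mCHH.

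For members called in expression, median-ratio scaling gave 7.64 (AD/A down), 0.347 and 0.463 (A4/A up and down), 9.03 and 9.49 (A4D/A4), 1.5 (A18/A4 up), 5.56 and 3.24 (A18D/A18), 8.56 and 9.49 (F4D/F4), 2.08 (F18/F4 up) and 5.67 and 4.63 (F18D/F18). The preceding tag gave, for genes that fell, 13.3 (SD/F), 18.3 (AD/A), 0.985 (A4/A), 24.8 (A4D/A4) and 15.5 (A18D/A18), and 4.17 for A18/A4 up. Stricter members gave, for genes that rose, 5.62 (A/SD), 2.92 (A4D/A4), 1.88 (A18D/A18), 2.5 (F4D/F4) and 2.08 (F18D/F18). A fit of the 6 libraries alone gave 0 in both directions for A4/A and for A18/A4, and a pseudocount of 0.1, no filter and the replicate block each gave 0.116 for A4/A down. The block moved no other of the 20 counts by over 1.5 times. Same-numbered libraries did not deviate together in any comparison (not all 3 correlations passed 0.1), so the numbers were not taken as pairs.

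Leaving out replicates gave ranges of 6.94 to 12 (A/SD down), 0.116 to 1.74 (A4/A up), 0 to 0.116 (A4/A down), 10.5 to 22 (A4D/A4 down, lowest without replicate 3), 0.231 to 3.82 (A18/A4 up), 0.579 to 4.63 (A18/A4 down), 1.5 to 6.13 (F18/F4 up), 0.463 to 1.97 (F18/F4 down) and 10.8 to 15.9 (F18D/F18 down, lowest without replicate 1). Without A4 replicate 2 alone, A4/A gave 1.74 up and 0.116 down, and A18/A4 1.39 up. Without F4D replicate 1 alone, chosen after seeing the data, F4D/F4 gave 4.17 up and 14.4 down. The share of members at a minimum level in F4D, F and SD was 44.1, 53.6 and 55 at 0.5 FPKM, 22, 30.8 and 30.6 at 5 FPKM, 52, 61.6 and 56.4 by preceding tag, and 27.9, 39.6 and 44 in stricter members. The share of members with a row was 57.8 by preceding tag, 16.9 for members by F4 and 14.2 for stricter ones, and that with a member as next tag was 48 and 49.6. The links by preceding tag, members by F4 and stricter members for the row and next-tag shares were chosen after seeing the data. Median levels and the counts that met the rule again kept within their limits in all alternatives. KZV38610 (A18D/A18) lost its call under a pseudocount of 0.1 and without replicates 1 or 3. Methylation depth at single promoters is unknown, and each group has 1 bisulfite library.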
